A study of Sus scrofa with 4 samples.

Results

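The genes examined belong to the actin cytoskeleton and to focal adhesions and were measured in cultured cells labelled as immature spermatogonia from pig testis. The 44 members were taken by gene symbol from a list whose rule uses no measured value, though the list was drawn up with earlier results of these data known, and 43 of the 44 were found among 26921 genes or loci. MYL12A was not analysed here, since no gene ID used here is that symbol. Expression was measured by mRNA sequencing in 2 libraries of cells labelled as ZBTB16 knockdown and 2 libraries labelled WT and titled as control. The design text plans the knockdown as a lentiviral short hairpin RNA in primary cells, and the labels do not say whether control cells received a vector. A vector effect and a knockdown effect cannot be told apart, and the labels give no age for the animals behind the cells. The labels state 2 independent experiments without tying a replicate number to either, so p-values measure the spread between these libraries. In the edgeR fit by counts the common coefficient of variation within a group, beyond counting noise, was only 0.0129. Whether the libraries of a group stem from separate cultures cannot be told, so p-values may not measure the spread between cultures.

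Actin filaments are held to the extracellular matrix at focal adhesions. Integrins span the membrane and bind matrix outside the cell, and talin, kindlin and vinculin couple their tails to actin inside it. Cofilin, profilin, formins and the Arp2/3 complex build and turn over the filaments, alpha-actinin and filamin cross-link them, and tropomyosin and non-muscle myosin II turn them into contractile bundles. In the testis these genes are known from Sertoli, peritubular and stromal cells as well as from germ cells. Many of them are known targets of serum response factor (SRF), which binds a DNA element called the CArG box together with coactivators that are held back by free actin.

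The knockdown libraries held 18500447 and 16548342 expected counts and the control libraries 17283536 and 15983390. The mean sequenced fragment was 266.4 and 267.3 bases long in knockdown libraries and 325.7 and 326.7 bases in control libraries. Both knockdown libraries thus had shorter fragments than both control libraries, and an effect of fragment length and one of the knockdown cannot be told apart. Each member is therefore described by counts and by 2 fits that use the deposited lengths. Summed FPKM over all genes was 634962 and 632881 in knockdown libraries, against 739808 and 742383 in control libraries, so an FPKM ratio between groups and a fitted fold are on different scales. ZBTB16 itself was at 1.37 and 1.34 FPKM in knockdown libraries and 1.77 and 1.76 FPKM in control libraries (log2 fold change -0.36, SE 0.109, adjusted p = 0.00338, edgeR; adjusted p = 0.113 with DESeq2). Among the spermatogonial markers, DDX4 lay between 1.86 and 2.3 FPKM and NANOS2 between 0 and 0.27 FPKM. UCHL1 was at 89.05 and 85.25 FPKM in knockdown libraries and 121.72 and 120.41 FPKM in control libraries. It was not called once a trend of transcript length was removed (log2 -0.10, adjusted p = 0.0653, edgeR). By counts SALL4, DAZL, KIT and ITGA6 rose, and ZBTB16, UCHL1 and DND1 fell. The list of spermatogonial markers summed to 195 and 186 FPKM in knockdown libraries and 222 and 217 FPKM in control libraries, and of the 13 tested 4 rose and 3 fell. Summed markers of Sertoli, peritubular and stromal cells were high. The 9 Sertoli markers summed to 946 and 972 FPKM in knockdown libraries, against 783 and 771 FPKM in control libraries. CLDN11 alone was at 691.34 and 720.84 FPKM in knockdown libraries and 587.06 and 571.18 FPKM in control libraries. The 6 peritubular markers summed to 5570 and 5470 FPKM in knockdown libraries, against 5690 and 5610 FPKM in control libraries. ACTA2 alone was at 3508.21 and 3439.65 FPKM in knockdown libraries and 3209.37 and 3198.13 FPKM in control libraries. The 9 stromal markers summed to 3450 and 3420 FPKM in knockdown libraries, against 3660 and 3650 FPKM in control libraries. On the TPM scale the last 2 sums turned: peritubular markers came to 8770 and 8640 TPM in knockdown libraries and 7690 and 7550 TPM in control libraries, and stromal markers to 5440 and 5400 TPM in knockdown libraries and 4940 and 4910 TPM in control libraries. The spermatogonial sums, at 307 and 294 TPM in knockdown libraries and 300 and 292 TPM in control libraries, overlapped on that scale, as did the Leydig sums. Of the marker genes tested, 6 of 9 Sertoli, 5 of 6 peritubular and 2 of 9 stromal markers rose by counts, and 2, 1 and 5 fell. Leydig markers summed to 181 and 192 FPKM in knockdown libraries, against 222 and 220 FPKM in control libraries. Macrophage and endothelial markers summed to less than 40 FPKM in each library. By counts 0 of 6 Leydig, 1 of 7 macrophage and 0 of 5 endothelial markers rose, and 2, 3 and 1 fell. In bulk RNA a change in the number of cells of a type and a change in RNA per cell cannot be told apart, and the part of these cell types in the results below was not tested.

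Among the members, 3 carry a CArG box in the 250 bases before to 50 after the annotated start of the gene, and a stretch around the box is shown for each because the element is the known binding site of SRF. All 3 rose in the knockdown by counts, as did most members. The sequences are from the Sscrofa 11.1 assembly, written 5′ to 3′ on the strand of the gene, with the box in capitals.
ACTB, chr3:4090384-4090449, minus strand: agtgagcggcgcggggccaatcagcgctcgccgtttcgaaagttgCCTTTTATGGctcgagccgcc
TPM4, chr2:61476782-61476877, minus strand: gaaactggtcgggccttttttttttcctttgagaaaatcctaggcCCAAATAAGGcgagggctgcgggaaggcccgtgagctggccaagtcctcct
VCL, chr14:76699893-76699991, plus strand: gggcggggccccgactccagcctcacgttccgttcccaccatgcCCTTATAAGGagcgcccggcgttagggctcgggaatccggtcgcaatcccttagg
The box began 21 bases before the start in ACTB, 51 in TPM4 and 206 in VCL. CArG boxes read as CArG boxes on both strands, so each is counted once. A box was present in 3 of the 40 member windows with a complete gene start (7.5%) and in 296 of 19337 windows of all protein-coding genes with such a window (1.53%). Among other genes of the pathway 6 of 144 windows held a box (4.17%), and of these 6 genes ACTG1 and MYL9 rose, TAGLN and FHL2 fell, and SRF and CNN2 did not pass by counts. ARPC3, CFL1 and ITGB5 have incomplete gene starts in the annotation and gave no window. A match is a description of these letters and shows no binding.

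All 43 members were expressed and all passed the filter on low counts, at control means from 3.26 FPKM for TLN2 to 2210 FPKM for ACTB, and with 429 to 68766 counts in a library. By counts 31 members rose in the knockdown, 6 fell and 6 did not pass (edgeR quasi-likelihood test, Benjamini-Hochberg adjusted p under 0.05). Over all 15763 genes tested 22.7% rose and 23.8% fell, while 72.1% of the members rose and 14.0% fell. Genes with far fewer counts than any member also passed the filter, and more counts let a smaller change be called. The shares given here and below were not matched for counts. The median log2 fold change, knockdown over control, was 0.22 over the members and -0.00 over all tested genes by counts. Changes were small: 2 called members changed at least 1.5-fold and 26 changed less than 1.25-fold. These sizes were not counted over all genes, so they are no trait shown to be particular to the members. With the effective length of each gene in each library as an offset 32 rose and 5 fell, against 22.2% and 23.9% of all genes. With a smooth trend of transcript length removed from each library 26 rose and 6 fell, against 19.3% and 21.6% of all genes. The median over the members was 0.19 with the offset and 0.11 with the length trend removed, against -0.00 and -0.01 over all tested genes. Across the 3 fits 24 members were called higher in each, 3 were called lower in each (SRC, ARPC1B and MYL6), 2 were called in none (ITGB1 and ITGB5), and 14 differed. The members took 2.57% and 2.557% of all counts in knockdown libraries and 2.309% and 2.294% in control libraries.

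**Figure D1:**
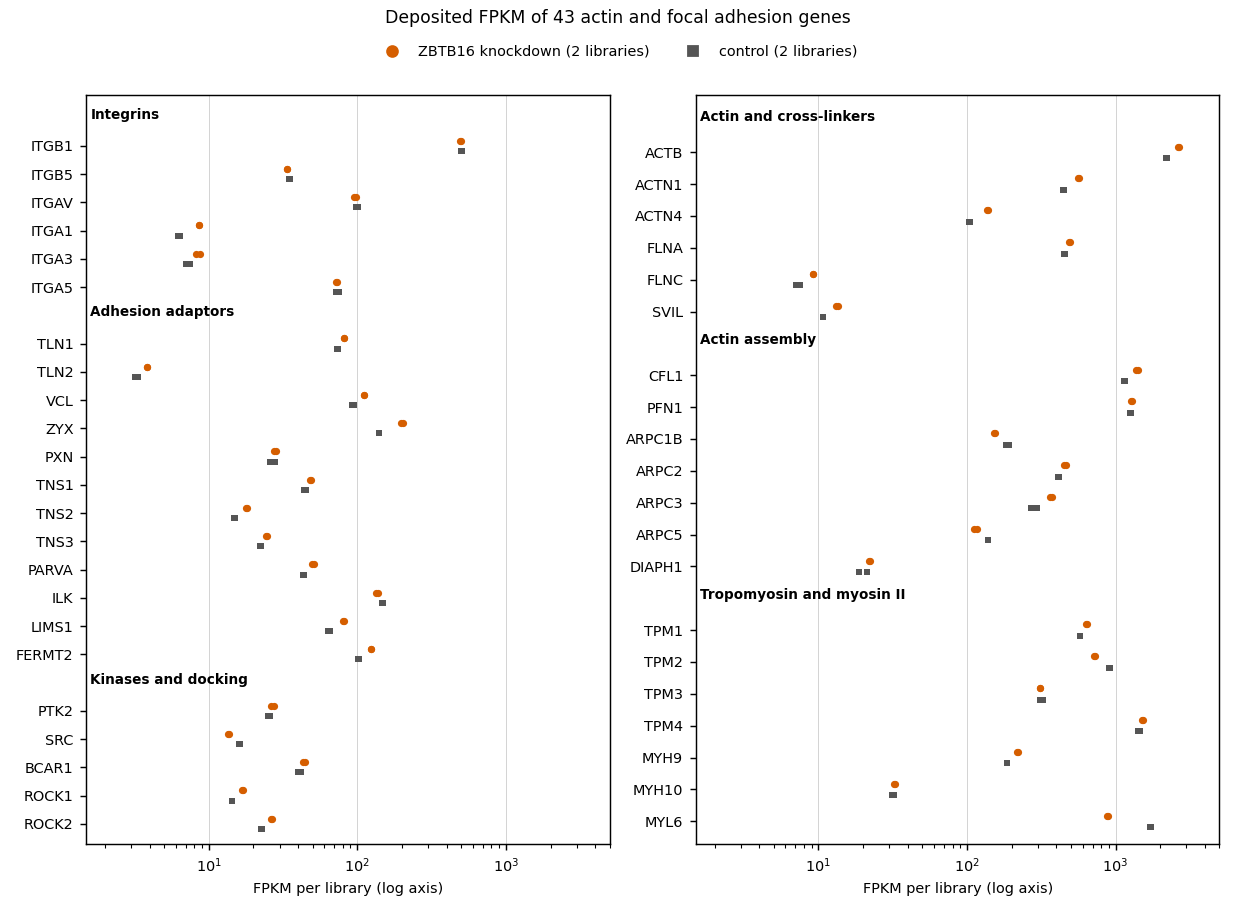
Deposited FPKM of each member in each library on a log axis, with knockdown libraries as orange circles and control libraries as grey squares, grouped by role. Both knockdown libraries lie above both control libraries for 30 members and below them for 7, and the groups overlap for 6. The same count was not made over all genes, so these numbers only describe the picture.

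Actin and its cross-linkers were higher throughout the group: 6 of 6 rose by counts and with the offset, with a median log2 fold change of 0.35, and 5 of 6 with the length trend removed. ACTB, the cytoplasmic beta-actin, was at 2678.04 and 2635.28 FPKM in knockdown libraries, against 2233.61 and 2194.49 FPKM in control libraries. The groups did not overlap and its fitted counts rose 1.26-fold (log2 0.34, SE 0.0159, adjusted p = 1.36e-46), and its log2 change was 0.51 with the length trend removed. ACTB lies on chromosome 3 (4084275 to 4090383) and shares much coding sequence with ACTG1, so reads split between them by RSEM are uncertain. ACTN1, a widely expressed alpha-actinin that bundles filaments, was at 563.62 and 555.14 FPKM in knockdown libraries and 452.80 and 446.21 FPKM in control libraries. ACTN4, its non-muscle relative, was at 139.29 and 136.91 FPKM in knockdown libraries and 104.87 and 103.64 FPKM in control libraries. Both alpha-actinins rose by nearly the same size in all 3 fits, ACTN1 by log2 changes of 0.36, 0.36 and 0.37 and ACTN4 by 0.45, 0.45 and 0.41. FLNC, the filamin best known from muscle, was at 9.27 and 9.14 FPKM in knockdown libraries and 7.02 and 7.51 FPKM in control libraries (log2 0.37, adjusted p = 1.49e-12). SVIL, the actin-bound membrane protein supervillin, was at 13.24 and 13.53 FPKM in knockdown libraries and 10.67 and 10.68 FPKM in control libraries (log2 0.34, adjusted p = 2.02e-11). Neither FLNC nor SVIL overlapped between groups. FLNA, the main filamin, took the most reads of any member, with 495.16 and 486.14 FPKM in knockdown libraries and 455.98 and 447.38 FPKM in control libraries. FLNA rose 1.11-fold by counts (adjusted p = 1.02e-15), and its log2 change was -0.01 with the length trend removed (adjusted p = 0.681).

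Factors that build and sever filaments went both ways: of 7, 5 rose and 2 fell by counts. CFL1, the severing protein cofilin, was at 1411.45 and 1372.48 FPKM in knockdown libraries and 1157.39 and 1146.61 FPKM in control libraries, without overlap. It rose 1.32-fold by counts (log2 0.40, SE 0.0187, adjusted p = 9.4e-47). PFN1, profilin, which feeds actin monomers to growing ends, was at 1281.11 and 1265.73 FPKM in knockdown libraries and 1276.69 and 1252.59 FPKM in control libraries, and these values overlap. Its counts rose 1.13-fold (adjusted p = 4.41e-14), the log2 change was 0.06 with the offset and 0.45 with the length trend removed, and limma on log2(FPKM + 1) gave 0.01 (adjusted p = 0.718). The log2 change of PFN1 therefore differed by more than 1.5 times between these settings. DIAPH1, a formin that elongates filaments, was at 21.90 and 22.22 FPKM in knockdown libraries and 21.25 and 18.64 FPKM in control libraries. DIAPH1 rose 1.11-fold (adjusted p = 0.00397) and lost the call without control replicate 2 (adjusted p = 0.243), with DESeq2 (0.102) and with limma on log2(FPKM + 1) (0.15).

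Subunits of the Arp2/3 complex, which starts branched filaments, moved in opposite directions. ARPC3 was at 360.07 and 371.18 FPKM in knockdown libraries and 294.37 and 271.15 FPKM in control libraries, the largest rise of a member by counts at 1.68-fold (log2 0.75, SE 0.0452, adjusted p = 6.25e-35). ARPC3 is also the shortest member, with an annotated transcript of 531 bases. Its gene start is incomplete in the annotation, so the transcript may be longer, and the fits that use its length depend on that. The deposited effective length, the number of positions at which a fragment can start, was 265 bases in knockdown libraries and 206 bases in control libraries. With the offset the log2 change of ARPC3 was 0.42 (adjusted p = 5.26e-08), and with the length trend removed it was 0.98. ARPC2, a core subunit, was at 466.27 and 451.09 FPKM in knockdown libraries and 408.37 and 416.23 FPKM in control libraries (log2 0.24, adjusted p = 1.69e-20). The 2 other members of the complex were lower. ARPC1B was at 151.79 and 154.33 FPKM in knockdown libraries and 183.64 and 191.01 FPKM in control libraries, without overlap, and its counts fell to 0.781 times control (log2 -0.36, adjusted p = 4.06e-20). ARPC5 was at 111.73 and 116.89 FPKM in knockdown libraries and 139.40 and 139.29 FPKM in control libraries. ARPC5 fell to 0.874 times control by counts (adjusted p = 5.16e-09) and was at a log2 change of -0.07 with the length trend removed (adjusted p = 0.059).

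Tropomyosins and non-muscle myosin II gave the deepest fall among the members beside several small rises: of 7, 3 rose, 2 fell and 2 did not pass by counts. MYL6, the essential light chain of non-muscle and smooth muscle myosin II, was at 885.61 and 875.70 FPKM in knockdown libraries, against 1743.11 and 1711.26 FPKM in control libraries. The groups were far apart, and its counts fell to 0.589 times control (log2 -0.76, SE 0.0218, adjusted p = 5.73e-75). With the offset MYL6 was at a log2 change of -0.92, and with the length trend removed at -0.41 (adjusted p = 1.15e-53). MYL6 lies on chromosome 5 (21559226 to 21562418), and its transcript of 710 bases in knockdown and 714 bases in control libraries is among the 3 shortest of the members. The heavy chains did not follow it. MYH9, the heavy chain of myosin IIA, was at 217.21 and 219.01 FPKM in knockdown libraries and 187.42 and 185.63 FPKM in control libraries, a rise of 1.19-fold by counts (adjusted p = 6.29e-30). MYH10, the heavy chain of myosin IIB, was at 32.66 and 32.51 FPKM in knockdown libraries and 31.44 and 32.35 FPKM in control libraries. MYH10 did not pass by counts (log2 0.06, adjusted p = 0.0664), passed as higher with the offset (0.08, adjusted p = 0.0231) and as lower with the length trend removed (-0.10, adjusted p = 0.00262). Its direction thus differed between fits.

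Tropomyosins, which line the filament and set which proteins reach it, split by gene. TPM1 was at 639.69 and 635.97 FPKM in knockdown libraries and 574.58 and 578.40 FPKM in control libraries, and rose 1.18-fold by counts (adjusted p = 1.42e-24). TPM4 was at 1502.48 and 1527.39 FPKM in knockdown libraries and 1427.17 and 1467.76 FPKM in control libraries. TPM4 rose 1.1-fold by counts (adjusted p = 4.22e-14), and the adjusted p was 0.0718 with limma on log2(FPKM + 1). TPM2 was at 732.46 and 719.50 FPKM in knockdown libraries, below its 899.42 and 913.24 FPKM in control libraries. TPM2 fell to 0.886 times control by counts (adjusted p = 1.62e-13) and to 0.829 times with the offset, and was at a log2 change of 0.03 with the length trend removed (adjusted p = 0.205). TPM3 was at 308.66 and 311.82 FPKM in knockdown libraries and 325.41 and 311.77 FPKM in control libraries, which overlap. TPM3 did not pass by counts (log2 -0.02, adjusted p = 0.459) but was called higher once the length trend was removed (0.15, adjusted p = 3.52e-08).

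**Figure D2:**
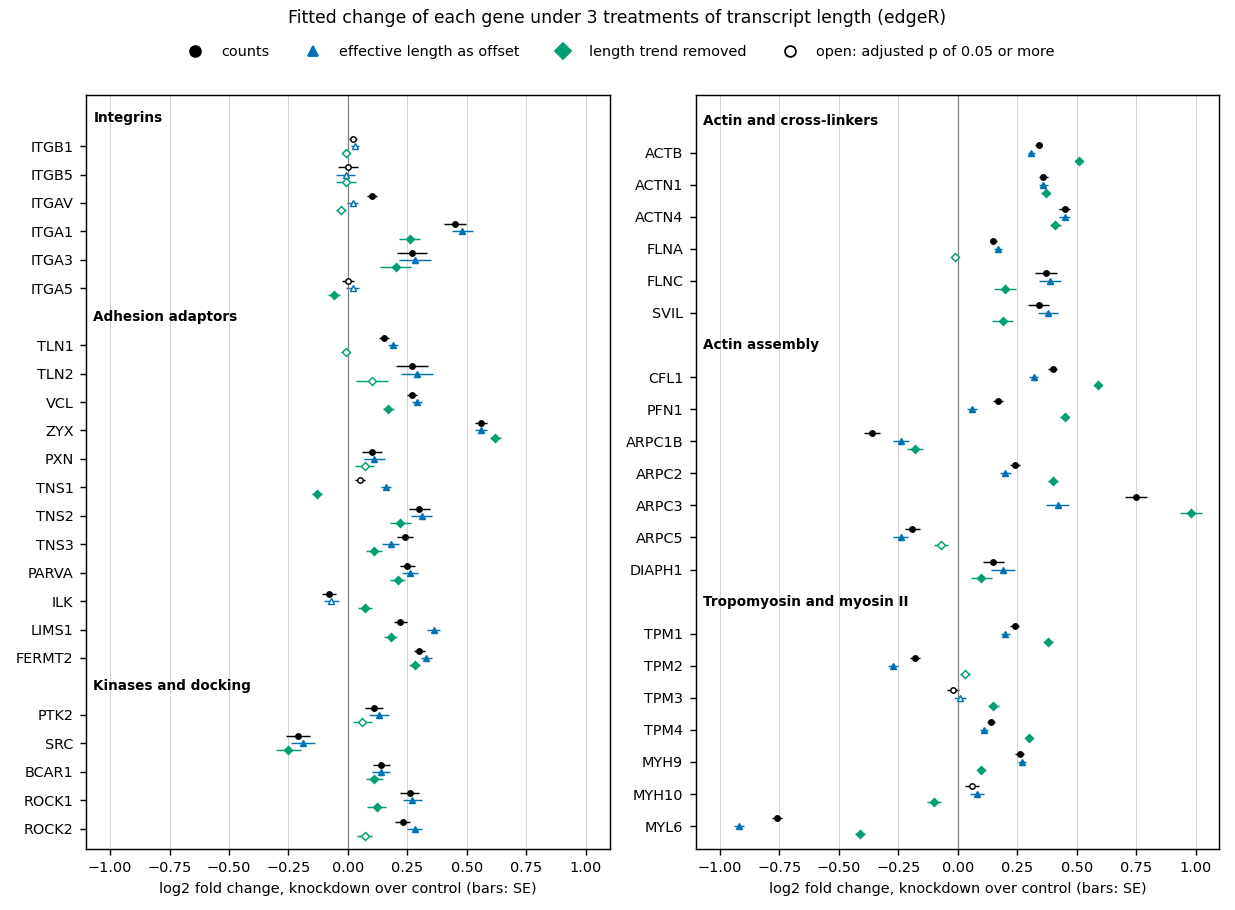
Log2 fold change of each member, knockdown over control, with its standard error, by counts (black circles), with the effective length as an offset (blue triangles) and with the length trend removed (green diamonds). Open symbols have an adjusted p of 0.05 or more. ZYX, ACTN1, ACTN4 and LIMS1 stay right of 0 in all 3 fits, MYL6, ARPC1B and SRC stay left of it, and TNS1, ILK and MYH10 are called on both sides.

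Adaptors that couple integrins to actin were mostly higher. Of 12, 10 rose and 1 fell by counts, 11 rose with the offset, and 8 rose and 1 fell with the length trend removed. ZYX, zyxin, which gathers at adhesions and fibres under tension, was at 202.70 and 196.29 FPKM in knockdown libraries, against 140.64 and 140.14 FPKM in control libraries. It rose 1.47-fold by counts (log2 0.56, SE 0.0246, adjusted p = 3.74e-50), with log2 changes of 0.56 with the offset and 0.62 with the length trend removed. ZYX lies on chromosome 18 (6861072 to 6870256). VCL, vinculin, which binds talin and actin, was at 110.16 and 110.37 FPKM in knockdown libraries and 91.81 and 95.47 FPKM in control libraries (log2 0.27, adjusted p = 7.99e-24). FERMT2, a kindlin that activates integrins, was at 122.95 and 122.94 FPKM in knockdown libraries and 100.61 and 102.11 FPKM in control libraries (log2 0.30, adjusted p = 1.82e-23). Neither group of values overlapped its control.

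The complex of integrin-linked kinase, PINCH and parvin was split by counts only, and with the length trend removed PARVA, LIMS1 and ILK were each called higher. PARVA, alpha-parvin, was at 50.94 and 49.39 FPKM in knockdown libraries and 42.86 and 43.74 FPKM in control libraries (log2 0.25, adjusted p = 1.92e-12). LIMS1, the LIM protein PINCH1, was at 79.56 and 81.29 FPKM in knockdown libraries and 63.92 and 65.78 FPKM in control libraries (log2 0.22, adjusted p = 2.12e-12). The mean LIMS1 transcript, weighted over isoforms by RSEM, was 3663 bases in knockdown and 3993 bases in control libraries, and with the offset its log2 change was 0.36. ILK, the pseudokinase that holds both, was at 138.69 and 133.23 FPKM in knockdown libraries and 149.02 and 146.62 FPKM in control libraries. ILK fell to 0.948 times control by counts (adjusted p = 0.0216), which did not pass with the offset (0.0636), with DESeq2 (0.209), without control replicate 1 (0.164) or without knockdown replicate 2 (0.258). Once the length trend was removed ILK was called higher (log2 0.07, adjusted p = 0.033).

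Talins, which bind integrin tails and unfold under force, rose by counts. TLN1 was at 81.94 and 81.28 FPKM in knockdown libraries and 74.62 and 73.46 FPKM in control libraries (log2 0.15, adjusted p = 4.2e-11). TLN2 was at 3.85 and 3.84 FPKM in knockdown libraries and 3.32 and 3.20 FPKM in control libraries (log2 0.27, adjusted p = 3.76e-04). With the length trend removed TLN1 was at -0.01 (adjusted p = 0.771) and TLN2 at 0.10 (adjusted p = 0.231). In the limma fit of log2(FPKM + 1) TLN2 did not pass (adjusted p = 0.0647). Of the tensins, which tie adhesions to actin fibres, TNS2 was at 17.74 and 18.04 FPKM in knockdown libraries and 14.73 and 15.14 FPKM in control libraries (log2 0.30, adjusted p = 4.09e-09). TNS3 was at 24.72 and 24.45 FPKM in knockdown libraries and 22.28 and 22.49 FPKM in control libraries (log2 0.24, adjusted p = 8.42e-10). Both stayed higher in all 3 fits. TNS1 was at 47.71 and 48.48 FPKM in knockdown libraries and 44.92 and 44.14 FPKM in control libraries, without overlap. It did not pass by counts (log2 0.05, adjusted p = 0.057), passed as higher with the offset (0.16, adjusted p = 1.96e-06) and without knockdown replicate 1 (adjusted p = 0.0322), and passed as lower with the length trend removed (-0.13, adjusted p = 9.71e-08). PXN, the scaffold paxillin, was at 28.54 and 27.60 FPKM in knockdown libraries and 27.97 and 25.85 FPKM in control libraries, which overlap. PXN rose by counts (log2 0.10, adjusted p = 0.0388), and the adjusted p was 0.529 without control replicate 2, 0.3 without knockdown replicate 1, 0.252 with DESeq2, 0.379 with limma on log2(FPKM + 1) and 0.2 with the length trend removed.

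Integrin subunits were partly higher. Of 6, 3 rose and 3 did not pass by counts, with a median log2 fold change of 0.06. With the offset 2 rose (median 0.02), and with the length trend removed 2 rose and 1 fell (median -0.01). ITGA1, the alpha subunit of a collagen and laminin receptor, was at 8.56 and 8.55 FPKM in knockdown libraries and 6.46 and 6.22 FPKM in control libraries. It rose 1.36-fold by counts (log2 0.45, SE 0.0444, adjusted p = 1.54e-17) and its log2 change was 0.26 with the length trend removed (adjusted p = 1.52e-07). ITGA3, the alpha subunit of a laminin receptor, was at 8.70 and 8.21 FPKM in knockdown libraries and 6.99 and 7.47 FPKM in control libraries (log2 0.27, adjusted p = 1.97e-04). ITGAV, the alpha subunit of vitronectin and TGF-beta-activating receptors, was at 95.71 and 98.23 FPKM in knockdown libraries and 97.61 and 100.74 FPKM in control libraries. Its counts rose 1.07-fold (adjusted p = 3.51e-05), while its mean transcript was 6187 bases in knockdown and 5800 bases in control libraries, and it did not pass with the offset (log2 0.02, adjusted p = 0.578) or with the length trend removed (-0.03, adjusted p = 0.333).

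ITGB1, the beta subunit shared by most matrix receptors and the most abundant of these 6 subunits, was at 490.05 and 502.73 FPKM in knockdown libraries and 502.00 and 505.32 FPKM in control libraries. Its log2 fold change was 0.02 with a standard error of 0.017 by counts (adjusted p = 0.317). ITGB5, the beta partner of ITGAV, was at 33.47 and 33.91 FPKM in knockdown libraries and 35.28 and 34.68 FPKM in control libraries (log2 -0.00, SE 0.0417, adjusted p = 0.95). ITGA5, the alpha subunit of the fibronectin receptor, was at 71.43 and 72.65 FPKM in knockdown libraries and 74.85 and 72.40 FPKM in control libraries. ITGA5 did not pass by counts (log2 -0.00, SE 0.0255, adjusted p = 0.979) and passed as lower with the length trend removed (-0.06, adjusted p = 0.0358).

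Kinases and docking proteins gave 4 rises and 1 fall by counts among 5, and 2 rises and 1 fall with the length trend removed. SRC, the kinase that phosphorylates adhesion proteins, was at 13.71 and 13.58 FPKM in knockdown libraries, below its 16.20 and 16.05 FPKM in control libraries. SRC fell to 0.866 times control by counts (log2 -0.21, SE 0.0506, adjusted p = 2.47e-04) and to 0.841 times with the length trend removed. PTK2, the focal adhesion kinase, was at 27.58 and 26.20 FPKM in knockdown libraries and 25.89 and 24.93 FPKM in control libraries (log2 0.11, adjusted p = 0.0101). The PTK2 call was lost without control replicate 2 (adjusted p = 0.143), without knockdown replicate 1 (0.195), with DESeq2 (0.138), with limma on log2(FPKM + 1) (0.205) and with the length trend removed (0.227). BCAR1, the docking protein p130Cas, was at 44.22 and 43.40 FPKM in knockdown libraries and 42.03 and 40.14 FPKM in control libraries (log2 0.14, adjusted p = 8.42e-04), and was not called without control replicate 2 (adjusted p = 0.0636) or with limma on log2(FPKM + 1) (0.107). ROCK1 and ROCK2, kinases that raise myosin light chain phosphorylation, both rose by counts. ROCK1 was at 16.76 and 16.91 FPKM in knockdown libraries and 14.35 and 14.46 FPKM in control libraries (log2 0.26, adjusted p = 1.25e-08). ROCK2 was at 26.44 and 26.81 FPKM in knockdown libraries and 22.57 and 22.91 FPKM in control libraries (log2 0.23, adjusted p = 1.73e-10), and its adjusted p was 0.0543 with the length trend removed.

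By counts the median log2 fold change of all tested genes was -0.36 below 1000 bases, -0.19 from 1000 to 2000, -0.01 from 2000 to 4000, 0.10 from 4000 to 8000 and 0.19 from 8000 bases. Members of the same classes were at medians of 0.17, 0.06, 0.22, 0.23 and 0.27, from 3, 10, 9, 16 and 5 genes. Of all tested genes from 1000 to 2000 bases 9.0% rose and 43.1% fell by counts, while of the 10 members in that class 5 rose and 4 fell. Of all tested genes of 8000 bases or more 45% rose and 4.69% fell, and of the 5 members 4 rose and none fell. With the offset the median of all tested genes below 1000 bases was -0.56. Spearman's correlation of length with log2 fold change was 0.20 over the 43 members and 0.37 over all 15763 genes by counts. With the offset it was 0.28 over the members and 0.45 over all genes, so the offset did not take the length trend away. With the length trend removed it was -0.28 over the members and 0.05 over all genes. These correlations are across genes of the same 4 libraries and are given as a description.

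**Figure D3:**
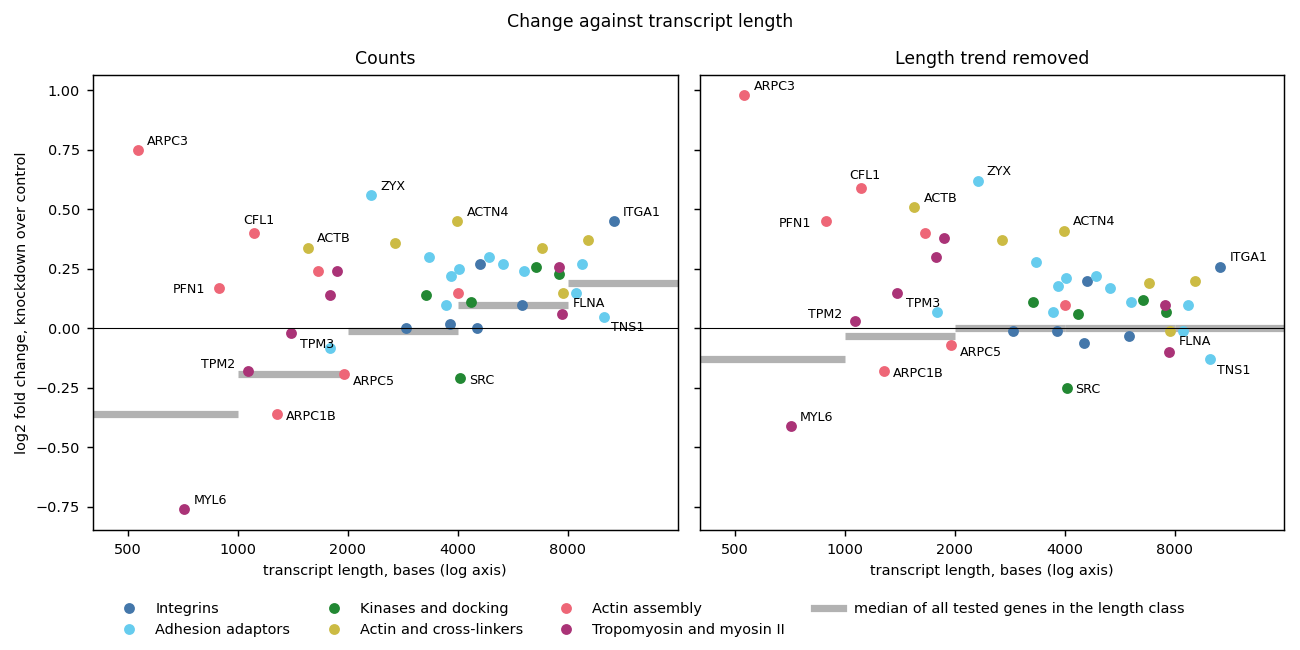
Log2 fold change of each member, knockdown over control, against its mean transcript length on a log axis, by counts (left) and with the length trend removed (right), coloured by role; grey bars are the medians of all tested genes in 5 length classes. ARPC3, CFL1, PFN1 and ACTB lie well above the grey bars of their classes in both panels, MYL6 lies below them, and FLNA and TNS1 move from above 0 to below it.

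Among 146 other genes of the same pathways, taken from 6 lists of which 5 are described, 144 were tested and 75 rose, 26 fell and 43 did not pass by counts. That is 52.1% and 18.1%, against 22.7% and 23.8% of all tested genes, with a median log2 fold change of 0.13. With the length trend removed the median was 0.11, the same as over the members. With the length trend removed 76 rose and 28 fell: 3 and 2 of the other integrins (median -0.02), 20 and 3 of the other adaptors, 20 and 10 of the genes of actin assembly and cross-linking, 8 and 3 of those of myosin II and calponins, and 11 and 5 of the SRF and YAP pathways, with the rest in the list not described. By counts 5 of the other integrins rose and 2 fell among 14 (median 0.15), led by ITGA6, a laminin receptor subunit also used as a spermatogonial marker, at 30.97 and 30.57 FPKM in knockdown libraries and 25.55 and 24.70 FPKM in control libraries. ITGB8 and ITGA11 rose by log2 changes of 0.44 and 0.31, and ITGB8 had an adjusted p of 0.089 with limma on log2(FPKM + 1). Of 33 other adaptors 19 rose and 6 fell. The LIM protein FHL1 rose 1.39-fold, PDLIM5 1.17-fold and the zyxin relative LPP 1.28-fold by counts (adjusted p = 1.04e-30, 4.16e-17 and 2.3e-25), and LPP was at a log2 change of 0.04 with the length trend removed (adjusted p = 0.194).

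Of 41 other genes of actin assembly and cross-linking 23 rose and 9 fell. The falls named are those of 2 thymosins, small proteins that hold actin monomers, and of ARPC4. TMSB10 was at 2891.23 and 2884.83 FPKM in knockdown libraries, against 6867.32 and 6935.93 FPKM in control libraries. TMSB4X was at 2121.01 and 2169.58 FPKM in knockdown libraries, against 3962.14 and 3861.24 FPKM in control libraries. By counts they fell to 0.597 and 0.659 times control, with log2 changes of -0.75 and -0.60, and with the length trend removed -0.68 and -0.25. ARPC4, a further Arp2/3 subunit, fell to 0.617 times control (adjusted p = 1.8e-37).

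Of 12 other genes of myosin II and the calponin family 6 rose and 3 fell. MYLK, the kinase of the myosin regulatory light chain, was at 223.45 and 224.59 FPKM in knockdown libraries and 152.84 and 147.08 FPKM in control libraries (log2 0.52, adjusted p = 3.45e-55). ACTA2, smooth muscle actin, rose 1.15-fold, and TAGLN, transgelin, fell to 0.821 times control; both are also peritubular markers. Of 18 genes of the SRF and YAP pathways 11 rose and 1 fell by counts. ANKRD1, a known YAP target, was at 44.51 and 42.47 FPKM in knockdown libraries and 26.47 and 27.83 FPKM in control libraries (log2 0.76, adjusted p = 4.61e-28). TEAD1, the DNA-binding partner of YAP, and AMOTL2, another YAP target, rose 1.48-fold and 1.34-fold. Chosen after their values were seen, SRF was at 19.17 and 19.20 FPKM in knockdown libraries and 20.12 and 18.96 FPKM in control libraries (log2 0.01, SE 0.0446, adjusted p = 0.858), and its coactivators MRTFA and MRTFB rose 1.26-fold and 1.25-fold (adjusted p = 1.23e-13 and 5.1e-09).

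**Figure D4:**
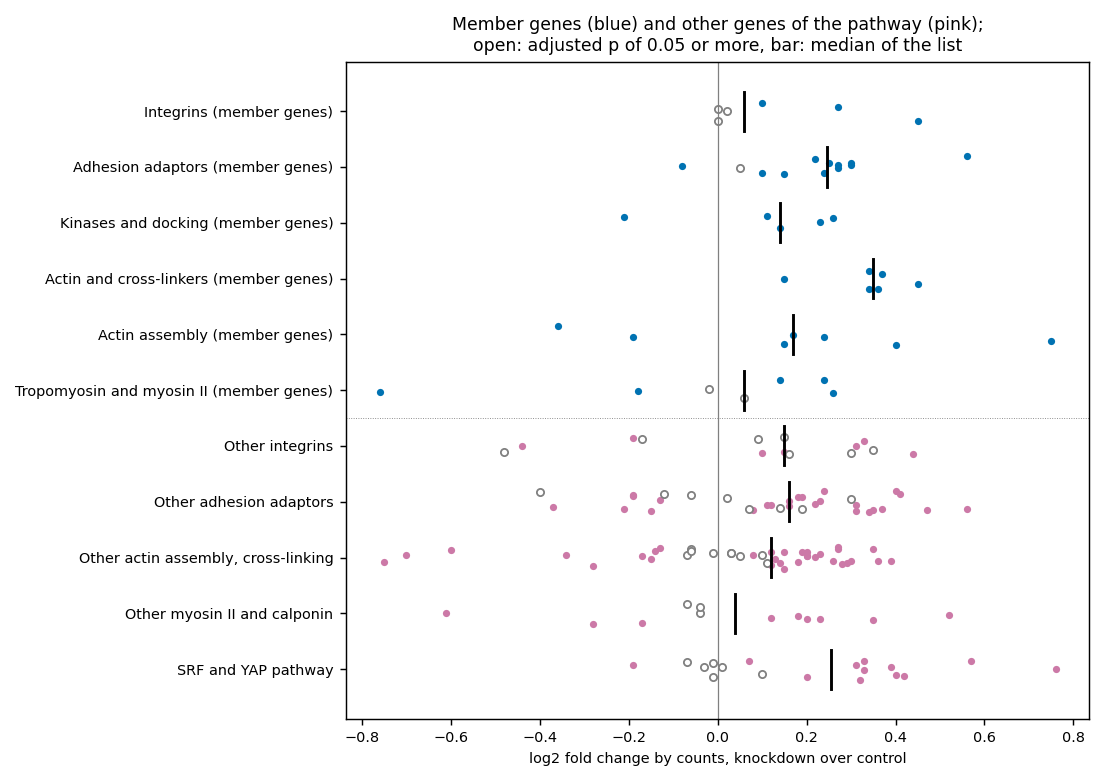
Log2 fold change by counts, knockdown over control, of each tested gene in the 6 role groups of the members (blue) above 5 lists of other pathway genes (pink), with open circles for genes with an adjusted p of 0.05 or more and a black bar at each list's median. All medians drawn lie right of 0, from 0.04 for other genes of myosin II and the calponin family to 0.35 for actin and its cross-linkers.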

How the data were processed

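Reads from 2 ZBTB16 knockdown and 2 control libraries were processed by the authors, per the labels' protocols, with SOAPnuke 2.1.0, HISAT2 2.2.1 (Sscrofa 11.1), bowtie2 2.3.5 and RSEM 1.3.3. The authors deposited RSEM expected counts, FPKM and TPM per gene, with the mean transcript length and effective length in bases. The deposited TPM was used for sums over libraries and gene lists. The labels do not state whether counting used strand, so antisense and overlapping genes cannot be separated, and reads shared by near-identical genes were split by RSEM. The authors' own test was DESeq2, per the labels' protocols.

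Expected counts were rounded and tested with edgeR 4.0.16 (R 4.3.3; TMM, filterByExpr with minimum count 10 and minimum total 15, quasi-likelihood test, two-sided) over all genes, with Benjamini-Hochberg adjustment at 0.05. Length was treated in 2 ways: effective length as an offset, and a smooth trend of length removed per library (mgcv 1.9.3). Other alternatives were DESeq2 1.42.0, limma 3.58.1 on log2(FPKM + 1) or log2(FPKM + 0.1), no filter, another scaling, a replicate block and leaving out each library. Fits were tested on simulated data. An exact permutation test of 2 against 2 libraries cannot go below p = 0.333.

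The members, lists and tests were chosen with earlier results of these data known. Up to 5 members a role group with the smallest p, and members whose call differed between the 3 fits, are given in full, and up to 3 genes of each other list with the smallest p. Gene positions and sequences come from RefSeq (Sscrofa 11.1), where all 43 members matched by symbol. A list of other pathway genes is counted in the total but not reported here.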

Additional observations from a re-analysis of the deposited data

How the results depend on the processing

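The count of members that rose stayed within 1.5 times of 31 under all 13 alternatives, from 22 (limma on log2(FPKM + 1) without a filter) to 32, and that of members that fell was 5 or 6. Without 1 library, 27 to 31 members rose and 5 or 6 fell. With the replicate number as a block 32 members rose and 6 fell, and 3674 and 3806 of all genes. ITGB1 gained a call in that edgeR fit (log2 0.02, adjusted p = 0.0158). Deviations of same-numbered libraries correlated at 3.60e-04. With 2 libraries a group this value cannot tell whether a number marks a shared experiment. Over all genes, DESeq2 called 2169 higher and 2272 lower, against 3574 and 3745 with edgeR. Limma on log2(FPKM + 1) called 2038 higher, 2034 with a pseudocount of 0.1 and 1421 without a filter, where 39 other pathway genes rose, against 75. In the same order these fits called 3887, 3869 and 3017 genes lower. Their median log2 fold changes over all genes were -0.054, -0.061 and -0.007. FPKM was not rescaled between libraries in the limma fits. Of 559 comparisons of a member with its fit by counts 497 kept direction and call, counting members called in neither fit, 43 lost the call, 8 gained one and 11 turned direction. Removing the length trend turned TLN1 and FLNA to -0.01, ITGAV to -0.03, TNS1 to -0.13, MYH10 to -0.10, ILK to 0.07, TPM2 to 0.03 and TPM3 to 0.15 on the log2 scale. Limma turned ITGAV to -0.03 on log2(FPKM + 1), with and without a filter, and with a pseudocount of 0.1. The cause was not tested. Fragment length differs with the groups, which limits each change of the size of the length trend, and 2 libraries a group limit the estimate of spread.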

Other observations

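The 9 Arp2/3 genes measured, collected after their values were seen, did not move as one. Besides ARPC2 and ARPC3, ACTR3, an actin-related subunit, rose 1.06-fold by counts (298.15 and 303.66 FPKM in knockdown libraries, 293.62 and 292.55 FPKM in control libraries; adjusted p = 5.18e-04, and 0.233 with limma on log2(FPKM + 1)). ACTR2, the other actin-related subunit, fell to 0.908 times control (120.45 and 131.61 FPKM in knockdown libraries, 155.58 and 153.80 FPKM in control libraries), and ARPC1A, the second form of the ARPC1 subunit, fell to 0.823 times. Both ARPC1 forms and ARPC4 were lower in each of the 3 fits. ARPC5L was called higher by counts (log2 0.36, adjusted p = 0.0124), was not called with DESeq2 (0.179), lost the call without control replicate 1 and without knockdown replicate 1 (adjusted p up to 0.114), and was at -0.11 with the offset (adjusted p = 0.536).

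The mean transcript length that RSEM assigned changed by over 5% between the groups for 4 members. The share of all genes past that limit was not counted, and some marker genes moved further, such as GATA4 (-24.1%). Among the members the change went both ways. The mean length was longer in knockdown libraries for ITGAV and shorter for LIMS1, ARPC1B (1219 bases in knockdown and 1335 bases in control libraries) and TNS1 (9729 and 10317 bases).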
